A study of Oryctolagus cuniculus with 4 samples.

Results

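The genes HSD11B1 and HSD11B2 code for the 11-beta-hydroxysteroid dehydrogenases, the pair of enzymes that turn glucocorticoids on and off inside cells. They are 2 of the 18475 genes in the count matrices of this study (ENSOCUG00000004024 for HSD11B1 and ENSOCUG00000011843 for HSD11B2), and were picked by symbol with their counts per cell type and sample already in view. Their levels and the differences between normal and injured bladder are therefore given as a description with no test. Single cells of bladder mucosa from adult New Zealand rabbits had been sequenced in droplets, with 2 normal samples (Normal_1 and Normal_2) taken under homeostasis and 2 injured samples (Injury_1 and Injury_2). The injured mucosa was taken on day 10 after a focal mucosal resection, when new urothelium had just closed over the wound. All samples were cut up, digested with collagenase II and loaded on the Chromium Single Cell 3' v3 kit, 1 library per sample, and the study's methods treat them as biological replicates. No source used here ties a library to an animal, so the p-values given for other genes measure the spread between these libraries.

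Cortisol and corticosterone are active glucocorticoids, and their 11-keto forms (cortisone and 11-dehydrocorticosterone) do not bind the glucocorticoid receptor. HSD11B1 sits in the membrane of the endoplasmic reticulum and mainly reduces the 11-keto forms to active hormone, with NADPH that H6PD makes in the same compartment. HSD11B2 works the other way and oxidizes active glucocorticoid to the inactive form, which in kidney and colon epithelium keeps the mineralocorticoid receptor free for aldosterone. Glucocorticoid restrains inflammation and collagen production, and fibroblasts and lymphocytes of several tissues are known to carry HSD11B1.

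The matrices held 25659 cell barcodes with 28745017 to 47881609 unique molecular identifiers (UMIs, 1 for each captured RNA molecule) per library, and 21945 barcodes passed the limits of at least 500 UMIs, 200 genes and at most 15% mitochondrial UMIs. Normal_1 was the shallowest library and lost the most barcodes. Any pair of libraries shared 4 to 12 kept barcodes. Cells were clustered without HSD11B1 and HSD11B2 among the clustering genes, and 10 cell classes were named from fixed markers. The samples are labelled urothelium, but epithelial-like cells (KRT15, KRT18, CDH1) made up 2.82 to 10.2% of the kept cells of a sample and fibroblast-like cells (COL1A1, DCN, LUM) 28.7 to 54.0%. Levels are given as CPM (counts per 1e6), that is UMIs of the gene summed over the cells of a class in a sample and scaled by the total of all UMIs in those cells.

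HSD11B1 was found mainly in fibroblast-like and T cell-like cells of this bladder. Of its 2324 UMIs in kept cells, 84.9% lay in fibroblast-like cells and 5.81% in T cell-like cells, which were far fewer. Normal_2 alone held 1538 of these UMIs. The fibroblast-like share was 92.3 and 89.9% in Normal_1 and Normal_2 and 59.0 and 62.7% in Injury_1 and Injury_2. T cell-like cells held 22.5 and 16.0% in the injured samples. Unnamed clusters held 5.12% over all samples and 16.5% in Injury_2. By level, T cell-like cells came first with 43.9 ± 24.8 CPM (SD, n = 4 samples), followed by fibroblast-like cells with 31.0 ± 27.5 CPM. These neighbours did not differ beyond their spread. Smooth muscle and pericyte-like cells followed with 5.85 ± 10.2 CPM and neutrophil-like cells with 4.83 ± 3.32 CPM, neither separated from the next class by more than the spread. The neutrophil-like level depended on the clustering. Its 14 UMIs all lay in the cluster led by SERPINB2, LYZ and S100A8, and none in that led by S100A8, S100A12 and S100A9. With clusters at resolution 0.3 or without integration, neutrophil-like cells held no HSD11B1 UMI, and macrophage-like cells stood at 1.61 and 1.71 CPM. Macrophage-like, epithelial-like and endothelial-like cells had mean levels of 0.76, 0.34 and 0.30 CPM. No HSD11B1 UMI was found in 221 B cell-like, 116 glia-like or 106 mast cell-like cells, which allows levels of up to 3.14, 6.30 and 12.8 CPM (3 counts over the class). The SD of the leading classes spans normal and injured samples, which are set apart below.

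HSD11B2 was an epithelial transcript. Of its 8445 UMIs in kept cells, 92.3% lay in epithelial-like cells. Injury_1 and Injury_2 held 3151 and 4609 of these UMIs. The epithelial-like share was 81.0 and 71.2% in Normal_1 and Normal_2 and 94.7 and 92.7% in Injury_1 and Injury_2. In Normal_2, 20.1% lay in fibroblast-like cells. Epithelial-like cells numbered 1531. Their level was 322 ± 337 CPM (SD, n = 4 samples), 11.6 times that of the next class. The other classes stood between 2.89 ± 1.86 CPM in endothelial-like cells and 27.7 ± 4.52 CPM in mast cell-like cells, the latter from 2 samples with 2 and 3 UMIs. The means of mast cell-like cells and the next class, glia-like cells, lay further apart than their SDs, but on very few UMIs. Glia-like cells held 1, 1 and 2 UMIs in Normal_1, Injury_1 and Injury_2, at 15.7, 6.32 and 8.77 CPM. Exact Poisson intervals of the mast cell-like level, 3.74 to 112 CPM in Injury_1 and 5.05 to 71.5 CPM in Injury_2, held these values. These classes were therefore not separated beyond counting error. No other neighbours differed by more than the spread, epithelial-like and mast cell-like cells included, because the epithelial-like level itself varied so widely between samples. Free RNA in the droplets gives some UMIs of any abundant gene in cells that do not make it, and its part in the HSD11B2 seen outside epithelium was not tested. In fibroblast-like cells HSD11B2 stood at 1.32 to 5.91% of its epithelial-like level of the same sample, and the summed epithelial markers (9 of the 13 listed were in the matrices, and none was at 0) at 0.398 to 2.28% of theirs. The fibroblast-like level of HSD11B2 was 4.95 and 1.19 CPM in the normal and 5.42 and 11.2 CPM in the injured samples. By edgeR it was 3.29-fold higher in injured samples (log2 fold 1.72, SE 0.71), and Normal_1 and Injury_1 were nearly level. HSD11B1 in T cell-like cells stood at 85.4 to 441% of its fibroblast-like level, while the summed fibroblast markers there (6 of 7 in the matrices) were at 0.269 to 3.16%.

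**Figure D1:**
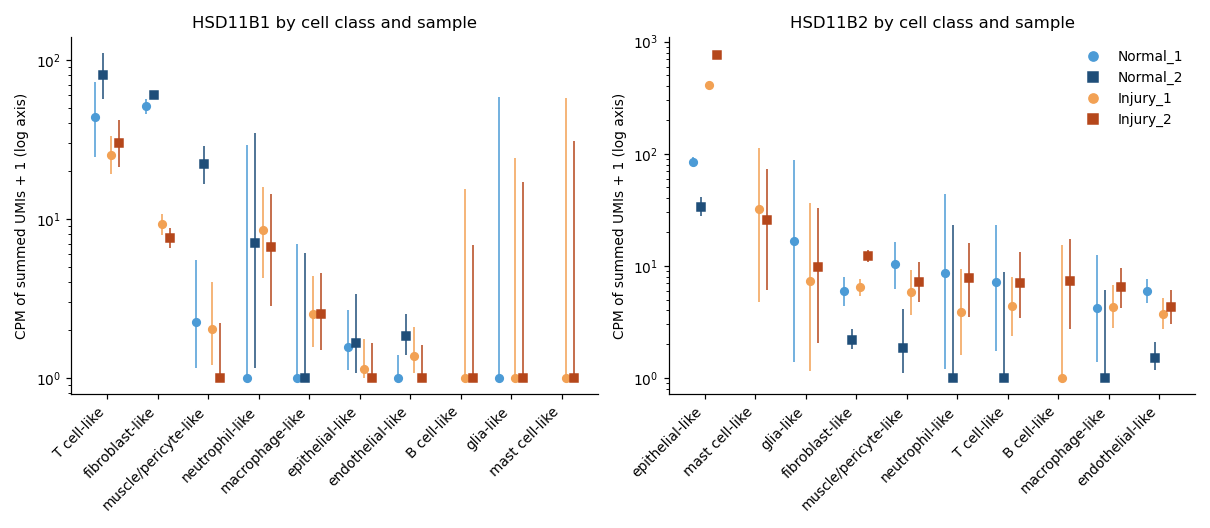
CPM of HSD11B1 (left) and HSD11B2 (right) plus 1, on a log axis, in each cell class with at least 20 cells in a sample; each point is 1 sample, and bars are exact 95% Poisson intervals, which cover counting error only. HSD11B1 is highest in T cell-like and fibroblast-like cells with the normal samples on top, and HSD11B2 is highest in epithelial-like cells with the injured samples on top.

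The enzymes occupied nearly separate cells. A UMI of HSD11B1 was seen in 1348 cells and of HSD11B2 in 1555 cells, and 20 cells had both, of which 17 were fibroblast-like and 3 epithelial-like. None of the 20 was among the 5% of cells of its sample with the highest doublet score.

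In fibroblast-like cells, the level of HSD11B1 was 50.3 CPM in Normal_1 and 59.0 CPM in Normal_2, against 8.25 CPM in Injury_1 and 6.61 CPM in Injury_2. The groups did not overlap, and the samples within each group lay close together. The edgeR fold change was 6.77-fold lower in injured samples (log2 fold -2.76, SE 0.29). Among the 8718 genes tested in fibroblast-like cells, 28.2% had both injured samples below both normal samples, so the lack of overlap by itself is common. No gene of this class passed an adjusted p of 0.05 in edgeR's quasi-likelihood test (0 of 8718, 0%). An unadjusted p under 0.05 was found for 923, and DESeq2 called 261. No call by either method is read for HSD11B1, which was chosen with this comparison in view. The exact 95% Poisson intervals were 6.90 to 9.79 and 5.54 to 7.84 CPM for the injured samples and 55.9 to 62.2 CPM for Normal_2, and that of Normal_1 also lay above both injured ones.

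A smaller share of fibroblast-like cells held a UMI of the transcript in the injured samples. Cells with at least 1 UMI of HSD11B1 were 205 of 1235 (16.6%) in Normal_1 and 717 of 3252 (22.0%) in Normal_2, against 101 of 1951 (5.18%) in Injury_1 and 92 of 2315 (3.97%) in Injury_2. Injured fibroblast-like cells were sequenced more deeply, with a median of 7926 and 8428 UMIs per cell against 5088 and 7009. After each cell was thinned to 1000 UMIs, the shares were 5.11 and 5.67% in the normal and 0.857 and 0.660% in the injured samples. Cells with 4 or more UMIs numbered 11 of the 205 and 82 of the 717 cells with a UMI in the normal samples and 3 of 101 and 5 of 92 in the injured ones, so Normal_1 and Injury_2 had about the same share. In endothelial-like cells, which hardly carry the gene, the share of cells with a UMI was at most 0.504%. Summed fibroblast markers, mostly collagens, took 61722 and 87327 CPM in the normal and 121250 and 138189 CPM in the injured fibroblast-like cells. Of the other cell types' markers there, the 5 neutrophil markers summed to 15.3 and 31.7 CPM in the normal and 186 and 59.8 CPM in the injured samples, the 4 T cell markers to 1.86 and 1.28 against 10.1 and 4.77 CPM, and the 5 B cell markers to 2.63 and 1.07 against 8.31 and 7.26 CPM. None of these markers was at 0 in all samples, and the part of these shifts in the level of HSD11B1 was not tested.

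**Figure D2:**
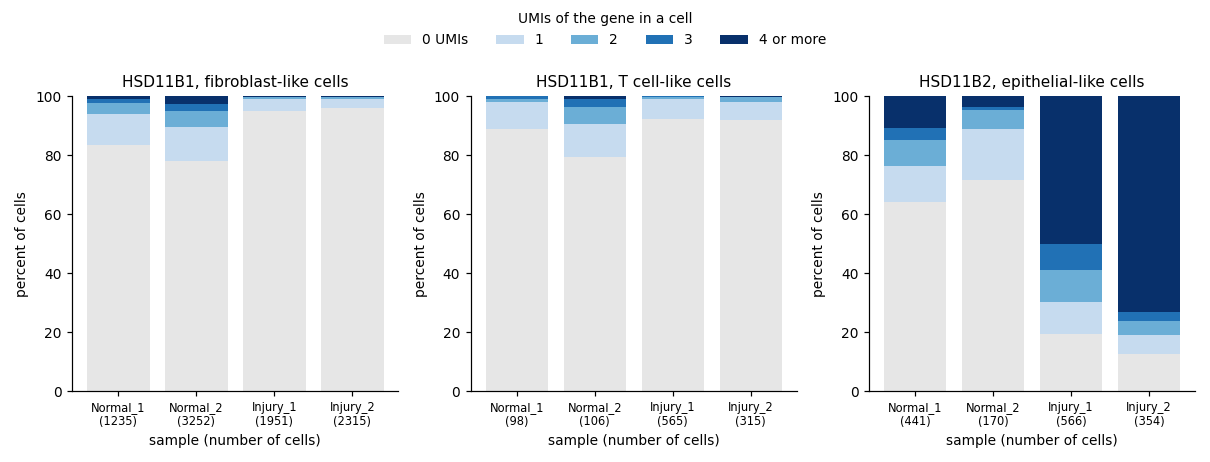
Percent of cells with 0, 1, 2, 3, or 4 or more UMIs of HSD11B1 in fibroblast-like and T cell-like cells and of HSD11B2 in epithelial-like cells, for each sample, with the number of cells under each bar. Cells with any HSD11B1 UMI are a minority everywhere and scarcer in injured fibroblast-like cells, whereas 80.7 and 87.3% of injured epithelial-like cells hold HSD11B2.

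Fibroblast-like cells were divided into 14 sub-clusters, again without the pair of genes, and the levels of HSD11B1 were highest in 3 that had APOD, the secreted lipid carrier apolipoprotein D, among their 5 leading genes. Sub-cluster 10 (APOD, CYP4B1, SPP1, ITGA4, ECRG4) had the highest level, with 235 CPM in Normal_1, 263 CPM in Normal_2, 35.6 CPM in Injury_1 and 31.0 CPM in Injury_2. Sub-cluster 2 (CPB1, APOD, PLIN2, GREM1, CP) followed with 98.1, 176, 12.3 and 15.5 CPM in the same order of samples. Sub-cluster 6 (ADH6, INMT, CYP4B1, PLBD1, APOD) had 69.3, 139, 12.9 and 8.66 CPM. In all 3 the normal samples lay above the injured ones. In the whole-tissue clustering, the fibroblast-like cluster led by APOD, CARD6, CPB1, CP and INMT had 193 ± 43.0 CPM in normal and 15.8 ± 3.52 CPM in injured samples (SD, n = 2 each), and HSD11B1 was itself among its 10 leading genes.

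The transcript was not limited to these sub-clusters. Sub-cluster 0 (OTULINL, IGFBP5, FAM162B, DPP10, PLK2) held 332 HSD11B1 UMIs, more than the 314 of sub-cluster 10 and the 290 of sub-cluster 6, at 43.3 and 75.0 CPM in the normal and 17.6 and 9.36 CPM in the injured samples. Sub-cluster 1 (CCL2, TNFAIP6, CHI3L1, CILP, HLX) had 26.1 CPM in both normal samples and 4.23 and 5.43 CPM in the injured ones. Sub-cluster 7 (EREG, IL1RL1, CCL19, PTN, COCH) had 7.35 and 80.2 CPM in the normal and 14.5 and 12.4 CPM in the injured samples, so its high level came from Normal_2. The lowest levels were in sub-clusters 3, 4 and 9. Sub-cluster 3 (CCDC3, PTPRQ, HHIP, NEFL, WIF1) had 0 and 3.67 CPM in the normal and 5.89 and 0.80 CPM in the injured samples. Sub-cluster 9, led by the matrix metalloproteinases MMP3, MMP10 and MMP1 with AREG and INHBA, had 0 and 2.98 CPM in the normal and 8.08 and 5.27 CPM in the injured samples, on 0, 4, 4 and 5 UMIs. Sub-cluster 4 (ITGBL1, MFAP5, MYOC, PCOLCE2, SFRP2) had 10.0 and 12.2 CPM against 1.37 and 0.62 CPM. Sub-cluster 5 (LVRN, S100A4, ADH6, PLBD1, TGM1) varied between the normal samples, with 11.5 and 58.5 CPM, and had 0 and 0.46 CPM in the injured ones. Over the sub-clusters, the mean of the normal samples ran from 1.49 to 249 CPM and that of the injured samples from 0.23 to 33.3 CPM.

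Of the 12 sub-clusters with at least 10 cells in every sample, both injured samples lay below both normal ones in 9, the samples overlapped in 2 (sub-clusters 3 and 7), and the injured samples lay above in sub-cluster 9. Over all genes with a mean of at least 10 CPM in these sub-clusters, 19.5% of pairs of gene and sub-cluster had both injured below both normal samples. Sub-clusters of a sample share their library, so they are not replicates. In sub-clusters 11 and 12, 54.1% and 86.8% of cells were among the 5% with the highest doublet scores, and without such cells the fibroblast-like difference kept its direction. The mix of sub-clusters was also applied to fixed levels. With the pooled normal level given to every sub-cluster, the mix of the injured samples would give 61.7 and 53.5 CPM, against 8.25 and 6.61 CPM measured. The mix of the normal samples gives 74.9 and 52.2 CPM by the same sum.

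T cell-like cells held HSD11B1 at a fibroblast-like level in normal mucosa and stood above injured fibroblast-like cells after injury. The levels were 43.0 CPM in Normal_1, 79.2 CPM in Normal_2, 24.3 CPM in Injury_1 and 29.1 CPM in Injury_2, on 14, 37, 50 and 34 UMIs. Both injured samples lay below both normal samples. However, the 95% interval of Normal_1 (23.5 to 72.1 CPM) overlapped those of Injury_1 (18.1 to 32.1 CPM) and Injury_2 (20.2 to 40.7 CPM). The edgeR fold change was 2.46-fold lower (log2 fold -1.30, SE 0.40). Of 3968 genes tested in T cell-like cells, 18.2% had both injured samples below both normal samples. None was called by edgeR (0 of 3968, 0%), with 451 at an unadjusted p under 0.05 and 37 called by DESeq2. Here too no call is read for HSD11B1. The difference between the fold changes of fibroblast-like and T cell-like cells was not tested.

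Both T cell-like clusters carried HSD11B1. The larger one (960 cells, led by GZMH, CXCR6 and ZAP70, genes of cytotoxic and tissue-resident T cells) had 34.6 and 83.1 CPM in the normal and 22.1 and 30.1 CPM in the injured samples. The smaller one (124 cells, led by STAP1, CD69, IL1RL1 and RGS1) had 63.3, 51.4, 44.9 and 22.0 CPM, on 3 to 9 UMIs per sample. T cell-like cells numbered 98 and 106 in the normal libraries and 565 and 315 in the injured ones, a difference that was not tested here. Their summed neutrophil markers (5 of 6 in the matrices, none at 0) were 27.6 to 38.5 CPM in normal and 652 to 684 CPM in injured samples, and IL1B made up most of the injured sum. The part of this in the level of HSD11B1 was not tested.

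In smooth muscle and pericyte-like cells HSD11B1 rested on 1 library. The levels were 1.25 CPM in Normal_1, 21.1 CPM in Normal_2, 1.04 CPM in Injury_1 and 0 CPM in Injury_2 (where a count of 0 allows up to 0.983 CPM). Of the 49 UMIs in Normal_2, 36 came from 58 cells of the smooth muscle cluster led by ACTG2, MYH11 and LMOD1, at 96.8 CPM. The same cluster had no UMI in 9, 24 and 31 cells of Normal_1, Injury_1 and Injury_2. Without Normal_2 the class had 0.76 ± 0.67 CPM (SD, n = 3). In fibroblast-like sub-cluster 8, which is led by the contractile genes ACTA2 and ACTG2 and came mostly from Normal_2 (361 of 458 cells), HSD11B1 stood at 30.1 CPM in that sample.

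HSD11B2 showed the opposite order in epithelial-like cells. Its level was 83.8 CPM in Normal_1 and 32.8 CPM in Normal_2, against 412 CPM in Injury_1 and 761 CPM in Injury_2. The 95% Poisson intervals (76.2 to 92.0, 26.7 to 40.0, 397 to 427 and 738 to 784 CPM) did not overlap within either group, so samples of a group differed by more than counting error, and the groups did not overlap. The edgeR fold change was 8.81-fold higher in injured samples (log2 fold 3.14, SE 0.51). Of 7041 genes tested in epithelial-like cells, 39.4% had both injured above both normal samples. The quasi-likelihood test called 122 genes (1.73%) at an adjusted p of 0.05, of which 47 (0.668%) were higher in injured samples and 75 lower, and DESeq2 called 507. No call is read for HSD11B2, since the gene was chosen with this comparison in view.

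Most injured epithelial-like cells carried the transcript in several copies. Cells with a UMI were 158 of 441 (35.8%) in Normal_1, 48 of 170 (28.2%) in Normal_2, 457 of 566 (80.7%) in Injury_1 and 309 of 354 (87.3%) in Injury_2. The median was 0 UMIs per cell in both normal samples, 3.5 in Injury_1 and 9 in Injury_2. The highest count in a cell was 20 and 9 in the normal and 36 and 57 in the injured samples. Thinned to 1000 UMIs per cell, the shares were 7.31, 4.60, 32.3 and 46.6%. Depth did not follow the condition, with a median of 12916 and 19867.5 UMIs per cell in the normal and 11931.5 and 16315.5 in the injured samples. In fibroblast-like cells the thinned shares were 0.519, 0.112, 0.522 and 1.12%.

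By the mean over the samples, HSD11B2 was lowest, among the 6 epithelial-like sub-clusters with at least 10 cells in every sample, in the one with the most KRT5, the keratin of basal urothelial cells. It was higher in those with more uroplakin, the plaque proteins of the luminal urothelium. In Normal_2 the KRT5-led sub-cluster was not the lowest, since sub-clusters 0, 1 and 5 lay below it. Sub-cluster 4 (KRT5, PTHLH, ITGA2, KRT16, DHRS7) had 3.12 CPM in Normal_1, 18.1 CPM in Normal_2, 104 CPM in Injury_1 and 113 CPM in Injury_2. KRT5 stood at 456 CPM in it and UPK3B at 5.92 CPM. Sub-cluster 3 (UPK1B, PPP1R3C, TXNIP, TNLG6A, CCDC28A), where UPK3B was at 239 CPM, had 167, 115, 656 and 746 CPM of HSD11B2. Sub-cluster 2 (CRISP3, SF3B2, FLRT3, RNF39, TGS1), with UPK3B at 217 CPM, had 195, 169, 607 and 1245 CPM. Each normal value of sub-clusters 2 and 3 lay above both injured values of the KRT5-led sub-cluster, but not always beyond counting error. The 115 CPM of sub-cluster 3 in Normal_2 rested on 19 UMIs in 12 cells. Its exact Poisson interval, 69.4 to 180 CPM, held both injured values. With sub-clustering at 0.4, the order did not hold throughout. A sub-cluster with UPK3B at 167 CPM had 165 CPM of HSD11B2 in Normal_1 but 95.6 CPM in Normal_2. The injured KRT5-led values at 0.4 were 116 and 114 CPM. The sub-cluster with most UPK3B had 169 and 132 CPM in the normal samples.

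Sub-cluster 0 (F3, INSL5, GLNB2, PLAU, LAMB3) held the most cells, with 19.5 and 9.27 CPM in the normal and 338 and 385 CPM in the injured samples. It held 66, 73, 106 and 68 cells of the 4 samples and had KRT5 at 109 CPM and UPK3B at 47.3 CPM. Sub-cluster 1, whose leading genes IL1B, C1QA, HLA-DRA and ARG1 include macrophage markers, had 137 and 3.99 CPM in the normal and 468 and 1183 CPM in the injured samples, and 11 of its cells came from Normal_2. Sub-cluster 5, with a median of 1096.5 UMIs per cell, had 62.3 and 0 CPM against 315 and 387 CPM. Sub-cluster 6 (S100A12, PIGR, S100A9, SPP1, SPNS2) held 3 cells of the normal and 97 of the injured samples, at 291 and 1217 CPM in the latter.

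In all 6 sub-clusters with at least 10 cells in every sample, both injured samples lay above both normal samples. Over all genes with a mean of at least 10 CPM in these sub-clusters, this order held for 32% of pairs of gene and sub-cluster. Sub-clusters 7 and 8, led by fibroblast genes (COL1A1, DCN) and endothelial genes (VWF, PECAM1), had 33.9% and 46.4% of cells among the 5% with the highest doublet scores. At the pooled normal level of each sub-cluster, the mix of the injured samples would give 111 and 117 CPM, against 412 and 761 CPM measured. The mix of the normal samples gives 73.2 and 51.4 CPM by the same sum. This sum used all sub-clusters, small ones included. The normal level of sub-cluster 6 rested on 2 cells of Normal_1 and 1 of Normal_2, under the limit of 10 cells. Summed uroplakins (UPK1B and UPK3B, 2 of 5 in the matrices) were 53.7 and 14.9 CPM in the normal and 275 and 87.6 CPM in the injured epithelial-like cells, and the 5 basal markers 604 and 738 CPM against 263 and 363 CPM. Summed neutrophil markers were 33.0 and 69.3 CPM against 218 and 786 CPM in these cells, and their part in the level of HSD11B2 was not tested.

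**Figure D3:**
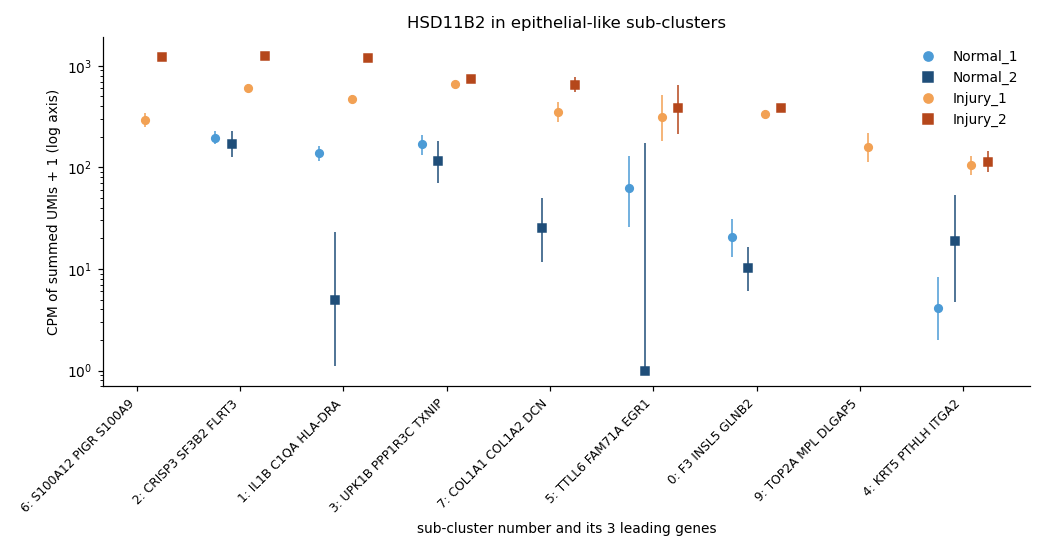
CPM of HSD11B2 plus 1, on a log axis, in each epithelial-like sub-cluster with at least 10 cells in a sample, ordered by mean level, with exact 95% Poisson intervals; each point is 1 sample. Injured samples lie above normal ones in the 6 sub-clusters with all 4 samples, and the KRT5-led sub-cluster 4 is lowest, at 104 and 113 CPM after injury.

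Cells with a high mitochondrial share held a sizeable part of the HSD11B2 message. The 3714 removed barcodes, of which 3549 exceeded the mitochondrial limit, carried 2325 of the 10770 UMIs of HSD11B2 in all barcodes (21.6%) and 65 of the 2389 UMIs of HSD11B1 (2.72%). Of the UMIs of all genes, removed barcodes held 3946473 of 28745017 in Normal_1 and 3518174 of 47881609 in Normal_2. In Injury_1 they held 2320591 of 46863011 and in Injury_2 2714304 of 46395632. The level of HSD11B2 in removed barcodes was 82.6 and 11.9 CPM in the normal and 237 and 519 CPM in the injured samples. Over all barcodes of a library, HSD11B2 stood at 30.3 and 3.78 CPM in the normal and 79.0 and 130 CPM in the injured samples, and HSD11B1 at 12.4 and 33.0 CPM against 4.89 and 4.83 CPM. These library levels also follow the number of epithelial-like and fibroblast-like cells caught.

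The receptors and partners of the enzymes were also read by class, and some of them shared leading classes with the enzymes. NR3C1, the glucocorticoid receptor, was detected in every class and was highest in T cell-like cells, at 625 ± 98.2 CPM (SD, n = 4), and lowest in epithelial-like cells, at 77.3 ± 40.5 CPM. In epithelial-like cells it was at 41.5 and 42.8 CPM in the normal and 113 and 112 CPM in the injured samples. That difference missed the threshold in edgeR (log2 fold 1.16, SE 0.23, adjusted p = 0.0746) and passed it in DESeq2 (adjusted p = 0.0083). In fibroblast-like cells NR3C1 was at 199 and 143 CPM in the normal and 151 and 138 CPM in the injured samples (log2 fold -0.11, SE 0.25, edgeR adjusted p = 0.92). In T cell-like cells it was at 559 and 524 CPM against 700.0 and 718 CPM (log2 fold 0.33, SE 0.25, edgeR adjusted p = 0.653).

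NR3C2, the mineralocorticoid receptor that HSD11B2 guards in aldosterone target tissue, was scarce. Its level in epithelial-like cells was 14.6 and 3.65 CPM in the normal and 14.5 and 13.2 CPM in the injured samples, and its class mean of 11.5 ± 5.26 CPM was second to mast cell-like cells (15.9 ± 0.62 CPM, n = 2). H6PD, which feeds HSD11B1 with NADPH, was scarce as well, with class means of at most 1.46 CPM and 0.50 ± 0.38 CPM in fibroblast-like cells. FKBP5, a receptor co-chaperone that glucocorticoid induces, was highest in T cell-like cells, at 18.4 and 12.8 CPM in the normal and 5.84 and 7.72 CPM in the injured samples (log2 fold -1.27, SE 0.55, edgeR adjusted p = 0.461). Its fibroblast-like level was 3.71 and 1.58 CPM in the normal and 5.10 and 2.54 CPM in the injured samples (log2 fold 0.75, SE 0.56, edgeR adjusted p = 0.702). TSC22D3, which codes for the glucocorticoid-induced leucine zipper protein GILZ, was at 8.05 and 11.9 CPM in normal and 6.30 and 6.41 CPM in injured fibroblast-like cells (log2 fold -0.55, SE 0.33, edgeR adjusted p = 0.652). Its T cell-like level, the highest by class mean, was 18.4 and 12.8 CPM in the normal and 12.2 and 19.7 CPM in the injured samples (log2 fold -0.05, SE 0.53, edgeR adjusted p = 0.991). CPM from 3' libraries are not scaled to gene length and are compared here within a gene only.

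Genes of the wider pathway were taken from 5 lists with 95 different symbols, of which 55 were in the matrices. No gene of these lists was called by edgeR in fibroblast-like, epithelial-like or T cell-like cells, among 41, 40 and 29 tested. At an unadjusted p under 0.05 there were 10, 15 and 6 of them, and DESeq2 called 5, 3 and 2. Over all genes tested, 923 of 8718, 1446 of 7041 and 451 of 3968 had such a p, and DESeq2 called 261, 507 and 37. Of 7, 9 and 5 genes of steroid metabolism tested (the other steroid dehydrogenases, reductases and their partners), the median log2 fold was -0.01, -0.49 and -0.38 in the 3 classes. For receptors and chaperones it was -0.29, 0.12 and -0.02, over 10, 9 and 9 genes. Over all genes tested the median was 0.00 in fibroblast-like and epithelial-like cells and -0.01 in T cell-like cells.

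Genes known to be induced by glucocorticoid had a median log2 fold of 0.49 over 13 genes in fibroblast-like cells, with 10 above 0 and 3 below. In epithelial-like cells the median was -0.91 over 8 genes, with 3 above 0 and 5 below, and these 5 had an unadjusted p under 0.05, as had 784 genes on the lower side among all 7041 tested. In T cell-like cells it was -0.05 over 7 genes. Genes of mineralocorticoid-responsive transport, such as the sodium channel subunits and sodium pump, had medians of -0.05, -0.15 and -0.05 over 5, 6 and 5 genes. The difference between classes was not tested.

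Inflammatory genes known to be repressed by glucocorticoid had a median log2 fold of 0.75 in fibroblast-like cells (9 genes), -0.39 in epithelial-like cells (9 genes) and 0.88 in T cell-like cells (6 genes). The genes named next were chosen because DESeq2 called them. In fibroblast-like cells CCL2, a monocyte attractant, was at 166 and 165 CPM in normal and 1235 and 888 CPM in injured samples (log2 fold 2.81, SE 0.30, edgeR adjusted p = 0.111). CXCL8, a neutrophil attractant, was at 413 and 311 CPM against 2312 and 1735 CPM (log2 fold 2.62, SE 0.29, edgeR adjusted p = 0.111). IL1B and VCAM1 of this list and NEDD4L of the transport list were the others, with log2 folds of 3.36, 1.71 and 1.64. The lowest edgeR adjusted p of the lists belonged to IL1B in T cell-like cells, at 9.21 and 25.7 CPM against 625 and 641 CPM (log2 fold 5.03, SE 0.45, edgeR adjusted p = 0.0534), where CXCL8 was the other gene called by DESeq2.

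In epithelial-like cells DESeq2 called MMP3 and MMP1, matrix metalloproteinases of the same list, on the lower side. MMP13 of this list was called by neither test (log2 fold -2.42, edgeR adjusted p = 0.209, DESeq2 adjusted p = 0.317). Its samples overlapped, at 42.5 and 208 CPM in normal and 46.2 and 13.9 CPM in injured samples. MMP3 was at 14.8 and 46.4 CPM in normal and 1.38 and 3.38 CPM in injured samples (log2 fold -3.99, SE 0.80, edgeR adjusted p = 0.0746). MMP1 was at 994 and 1235 CPM against 575 and 283 CPM (log2 fold -1.67, SE 0.40, edgeR adjusted p = 0.095). NR3C1 was the third gene that DESeq2 called. In fibroblast-like cells MMP3 and MMP1 had log2 folds of -0.95 and -1.03, which passed neither test.

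**Figure D4:**
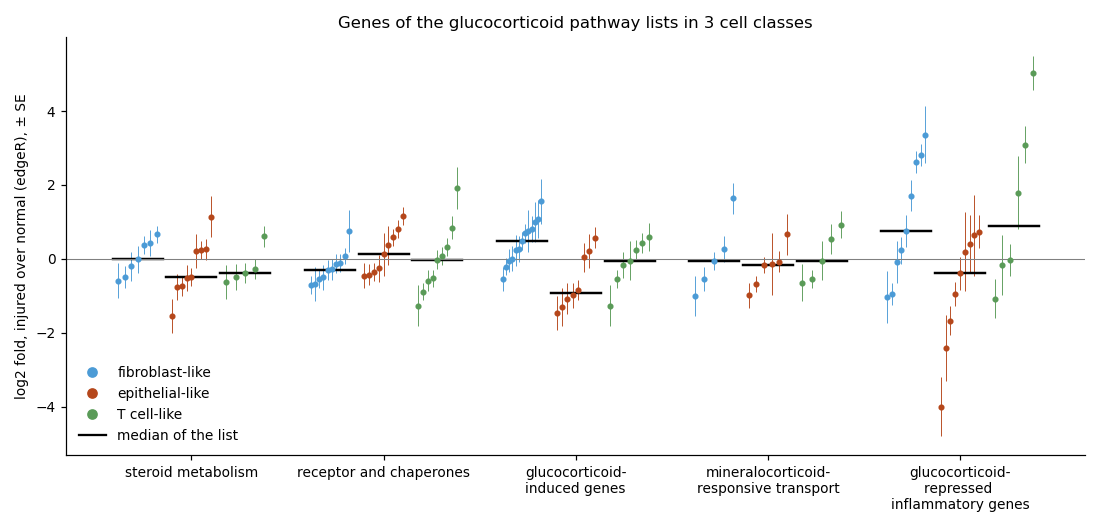
Log2 fold change of injured over normal samples from edgeR, with its SE, for each tested gene of the 5 pathway lists in fibroblast-like, epithelial-like and T cell-like cells; black lines are the medians of the lists. No gene passed the adjusted threshold, and the medians run from -0.91 (glucocorticoid-induced genes, epithelial-like) to 0.88 (repressed inflammatory genes, T cell-like).

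The genes whose level followed HSD11B1 most closely over 35 pairs of class and sample came from its leading classes. Among 4666 genes, CALY had the highest Pearson correlation of log2(CPM + 10), at 0.80, followed by SULT1C2 (0.70), CRTAM (0.68), TNFSF11 (0.66) and TXK (0.66). CALY and SULT1C2 were highest in fibroblast-like cells, and CRTAM, TNFSF11 and TXK, genes of T lymphocytes, in T cell-like cells. CALY was at 46.6 and 134 CPM in normal and 8.56 and 12.8 CPM in injured fibroblast-like cells, an order like that of HSD11B1. SULT1C2, a sulfotransferase, was at 139 and 54.3 CPM against 41.7 and 20.9 CPM there.

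For HSD11B2 the closest genes were POF1B (0.94), GPA33 (0.93), TSPAN8 (0.93), INSL5 (0.92) and GRHL3 (0.92), all highest in epithelial-like cells. INSL5, an insulin-like peptide hormone, was at 9.67 and 7.29 CPM in normal and 141 and 279 CPM in injured epithelial-like cells. POF1B, an actin-binding protein of epithelial junctions, was at 17.1 and 4.97 CPM against 63.3 and 78.5 CPM. GRHL3, a transcription factor of barrier epithelia, was at 16.7 and 11.6 CPM against 40.8 and 32.2 CPM. The pairs share libraries and depth, and most of them hold almost none of these genes, so the correlations describe these data and carry no p-value.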

How the data were processed

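The authors made the files with Cell Ranger (version 6.0.1 in the file headers) and deposited raw UMI counts per gene and barcode; the aligner's genome release and annotation are not given in the sources used here, so no coordinates or sequences are printed. Samples were grouped by their titles. HSD11B1 and HSD11B2 and all lists were chosen with earlier results of these data known. Cells with at least 500 UMIs, 200 genes and at most 15% mitochondrial UMIs (13 genes) were log-normalized to 10000 UMIs, integrated by canonical correlation over 2000 variable genes (HSD11B1 and HSD11B2 left out) and clustered on 30 principal components at resolution 0.8 with Seurat 5.3.0 in R 4.3.3, the settings of the study where stated. This gave 29 clusters. Clusters were named from fixed markers, and 1009 cells in 6 clusters stayed unnamed, so a difference from the study's classes may come from the rebuilt names. Doublets were scored with Scrublet in scanpy 1.11.5 and not removed. Fibroblast-like and epithelial-like cells were clustered again at 0.8.

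UMI counts were summed per class and sample (at least 20 cells; sub-clusters at least 10). Genes were tested with edgeR 4.0.16 (filterByExpr, TMM, glmQLFTest, Benjamini-Hochberg over all genes of the class, threshold 0.05), and DESeq2 1.42.0 was an alternative. The edgeR step was tested on simulated data. HSD11B1 and HSD11B2 get a fold and SE and no p. Each fold or log2 fold in the text is from edgeR. Differences on the log2(CPM + 10) scale are named as such. Intervals are exact Poisson at 95% and cover counting error only. Thinning to 1000 UMIs is the expectation over all draws, without shallower cells (1 to 25 per sample in the 3 classes described). Besides HSD11B1 and HSD11B2, the text names NR3C1, NR3C2, H6PD, FKBP5 and TSC22D3, up to 4 called genes per list, class and direction, the 5 genes most like each by correlation (at least 20 CPM in a class) and the 5 leading genes of a sub-cluster; other genes were chosen after their values were seen. The labels give no batch or date. Replicate numbers are names: nothing ties same-numbered samples.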

Additional observations from a re-analysis of the deposited data

How the results depend on the processing

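The differences of HSD11B1 and HSD11B2 between injured and normal samples kept their direction under every alternative run, and no value reversed. Runs that left out 1 library or compared same-numbered samples could not reverse them, because the groups did not overlap. On the log2(CPM + 10) scale, HSD11B1 in fibroblast-like cells differed by -1.89 (replicate SD 0.12), which moved to -2.73 with a pseudocount of 1 and lay between -1.99 and -1.79 when 1 library at a time was left out. HSD11B2 in epithelial-like cells differed by 3.17 (replicate SD 0.71), and by 2.60 to 3.73 with 1 library left out. With a replicate block, the pair numbered 1 gave -1.72 and 2.17 for these genes and the pair numbered 2 gave -2.05 and 4.17. Same-numbered samples are tied by nothing in the labels, and their deviations correlated at 0.237, 0.110 and 0.057 in fibroblast-like, epithelial-like and T cell-like cells. HSD11B1 in T cell-like cells, an alternative set chosen after seeing the data, differed by -0.91 (replicate SD 0.39; range -1.28 to -0.53). The ratio of class levels was 1.41 for T cell-like over fibroblast-like HSD11B1 (1.18 to 1.80) and 56.5 for epithelial-like over fibroblast-like HSD11B2 (40.0 to 67.5). Other sub-clustering at 0.4 gave the same shares of sub-clusters, 75.0% and 100%.

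Counts of called genes depended on the test. In fibroblast-like cells the 0 calls became 261 with DESeq2, 486 with no filter on low counts, 28 with a replicate block and 14 to 53 with 1 library left out. In epithelial-like cells the 122 calls became 507, 960, 25 and 58 to 476 in the same order, and 50 with cells of at most 10% mitochondrial UMIs. In T cell-like cells the 0 calls became 37, 204, 23 and 38 to 261, and 1 with library-size scaling, 2 with median-of-ratios scaling and 3 at 10% mitochondrial UMIs. Of pathway genes, the 0 calls in fibroblast-like cells became 5, 6, 2 and 0 to 3 in the first order. In epithelial-like cells they became 3, 7, 1 and 0 to 4, and 2 with library-size scaling, 1 without likely doublets and 1 at 10% mitochondrial UMIs. In T cell-like cells they became 2, 4, 2 and 2 to 3, and 1 with either other scaling and 2 at 10% mitochondrial UMIs. The cause of these changes was not tested. A fit with 1 library in a group assumes that this library varies like those of the other group.

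With 2 samples per group, no error of a group mean is well known. Levels of a few CPM rest on single UMIs, and HSD11B1 in smooth muscle and pericyte-like cells rests on Normal_2.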
